A study of Mus musculus with 12 samples.

Results

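The response of ACAT1 KO J774A.1 cells to LPS was taken from 6 of the 12 RNA-seq libraries of the series. These were 3 libraries of ACAT1 KO cells given LPS at 100 ng/mL for 2 hr and 3 of ACAT1 KO cells left unstimulated, chosen by genotype and treatment alone. J774A.1 is a mouse macrophage line, and total RNA was sequenced. The KO lines were made with the plasmid pSpCas9-2A-GFP carrying a guide to the fourth exon of Acat1, and the WT lines, which also passed through transfection and GFP sorting, received the plasmid without a guide. The study describes 3 different lines for each genotype, while the labels number the libraries of each group from 1 to 3 and do not name a line. The other 6 libraries, of WT cells in the same 2 states, are given only beside results of the KO cells. All cells were grown in DMEM with 10% FBS. The RNA was sampled at a single time after LPS, so the order of events between the states was not measured.

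LPS is sensed by TLR4 with MD-2 and CD14. From the plasma membrane TLR4 signals through MYD88 to NF-kB and MAP kinases, which switch on cytokine genes together with the inhibitors that later shut the pathway down. From endosomes it signals through TRIF to TBK1 and IRF3, which induce IFN-β. Secreted IFN-β acts on the cells through factors that include STAT2 and IRF9 and switches on the interferon-stimulated genes of the type I interferon (T1IFN) response. ACAT1 is the mitochondrial acetoacetyl-CoA thiolase, which joins or splits acetyl-CoA units in ketone body and isoleucine metabolism.

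Read counts per gene were normalised to CPM, the reads of a gene per 1000000 reads of the library, with library totals scaled by TMM. A gene was called higher or lower after LPS at a Benjamini-Hochberg adjusted p under 0.05 in edgeR's two-sided quasi-likelihood test, and log2 fold changes (log2FC) are LPS minus unstimulated, those of WT cells named as such. Means of 3 libraries are given ± SD, and library values are in the order of replicates 1, 2 and 3. The 6 libraries held 79971704 to 127263834 counts. Of the 16699 genes listed in both states, 16146 passed the filter on low counts. Along the first principal component, with 79.4% of the variance, the LPS libraries separated from the unstimulated ones. The second, with 13%, set unstimulated replicate 2, at -53.65, apart from the other 5 libraries, at -4.74 to 29.88. In replicate 2, 245 genes of at least 1 CPM lay at least 4-fold above both other unstimulated libraries, and 76 of them were protein-coding. For 213 of the 245, WT unstimulated replicates 1 and 2 also lay at least 4-fold above WT unstimulated replicate 3. Noncoding genes antisense to exons took 0.130% of the counts of replicate 2 and 0.0750% and 0.0708% of those of replicates 1 and 3. Within the unstimulated libraries the common biological coefficient of variation was 0.251, against 0.0843 within the LPS libraries. Of the 245 genes, 90 were called lower after LPS, and 38 of these were still called when replicate 2 was left out.

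**Figure D1:**
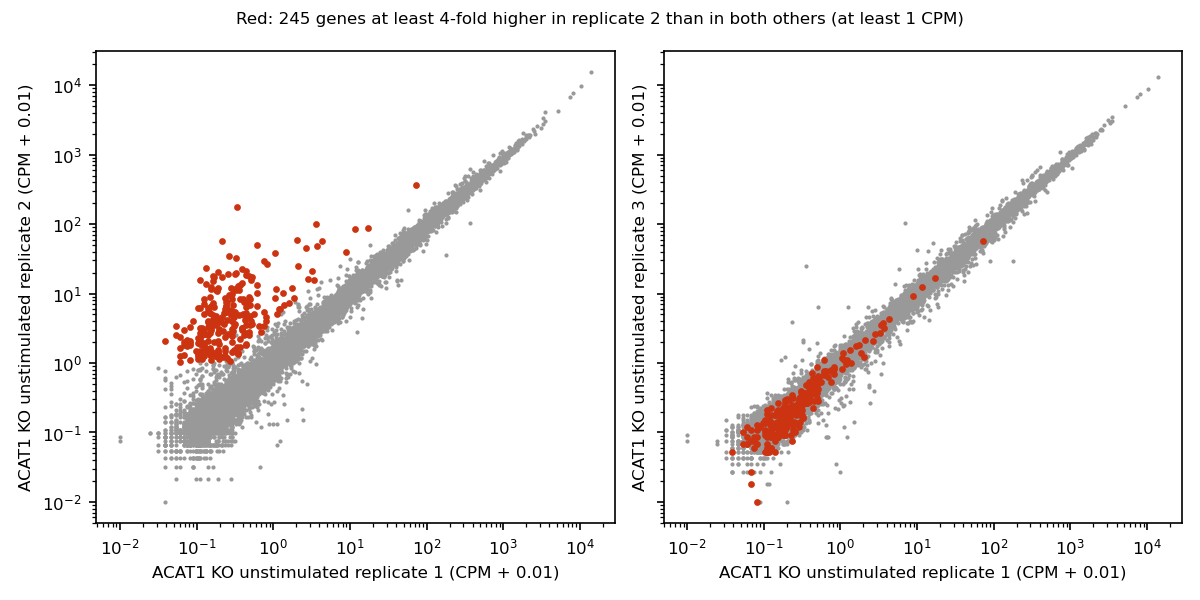
Each panel plots the CPM of every gene (plus 0.01, log axes) in ACAT1 KO unstimulated replicate 1 on the horizontal axis against replicate 2 or replicate 3 on the vertical axis. The 245 genes at least 4-fold higher in replicate 2 than in both other libraries are red and leave the diagonal only in the panel of replicate 2.

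All 12 macrophage markers checked were counted in every library, with summed levels of 11980 to 13480 CPM unstimulated and 11440 to 13100 CPM after LPS. Csf1r, the receptor of the macrophage growth factor M-CSF, stood at 1697, 1545 and 1382 CPM before and 1750, 1628 and 1419 CPM after LPS. Lyz2, which encodes lysozyme, stood at 7426, 6690 and 6690 CPM before and 5931, 5376 and 5048 CPM after LPS and fell by 0.35 on the log2 scale (adjusted p = 0.00548). Adgre1, the F4/80 antigen, rose from 42.99 ± 4.42 to 162 ± 2.94 CPM, a log2 fold change of 1.92 (SE 0.0803, adjusted p = 1.31e-06). Of the markers of other cells, 1 of 10 for T and NK cells, 2 of 6 for B cells, 1 of 9 for neutrophils and mast cells and 3 of 11 for fibroblast, epithelial and endothelial cells could be tested. The T cell kinase Lck summed to 5.27 to 6.48 CPM unstimulated and 9.95 to 11.01 CPM after LPS. The tested B cell markers, almost wholly the immunoglobulin chain Ighm, summed to 60.4 to 82.2 and 35.05 to 48.3 CPM. Of these 2 markers, 1 was called higher (log2FC 1.46) and 1 lower (log2FC -0.77), so the sum does not describe both. S100a8 stood at 3.09 to 5.17 and 2.05 to 3.06 CPM. The sum of Pdgfra, Cdh5 and Pecam1 was 2.43 to 2.97 CPM unstimulated and 13.6 to 15.4 CPM after LPS, with Pdgfra, a PDGF receptor, rising from 1.24 ± 0.124 to 11.9 ± 0.937 CPM. The T cell receptor genes Cd3e and Trac, the B cell gene Pax5, the granulocyte gene Elane and the epithelial gene Epcam were in neither table and were not analysed here. The part of such genes in any result was not tested.

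Acat1, the targeted gene, was still counted in the KO cells, at 28.97, 25.9 and 26.3 CPM in the unstimulated and 19.97, 18.5 and 18.96 CPM in the LPS libraries. The states did not overlap, and the level fell by 0.50 on the log2 scale after LPS (SE 0.0649, adjusted p = 0.000343). The exact two-sided permutation test of the 6 values gave p = 0.1, the smallest that 3 against 3 libraries allow. In WT cells, on the scale of all 12 libraries, Acat1 stood at 108, 107 and 80.8 CPM unstimulated and 85.4, 95.4 and 65.00 CPM after LPS, so that KO cells lay lower by 71.9 CPM unstimulated and 62.9 CPM after LPS. The counts cover whole transcripts and do not show which part of a transcript was edited.

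LPS changed the levels of most genes in ACAT1 KO cells. Of the 16146 genes tested, 4862 rose, 30.1% of them, and 5292 fell, 32.8%. With a fold of at least 2 as well, 1814 rose, 11.2%, and 1784 fell, 11.05%, and the median over all genes was -0.03. The genes that rose at least 2-fold went from 4.46% to 20.7% of all transcripts, expressed in TPM, a level per transcript length, and those that fell at least 2-fold went from 4.12% to 1.16%. In bulk RNA, fewer cells of a type and less RNA per cell cannot be told apart, and CPM and TPM are shares of the RNA, not amounts per cell. With upper-quartile scaling the median moved to -0.17 and the calls to 3990 higher and 6579 lower, 37.8% of the calls being higher in place of 47.9%. Changes are therefore best read relative to that median, and small changes of either direction depend on the scaling.

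The largest rises were of genes with a mean under 10 CPM before LPS. Gbp5, an interferon-induced GTPase that acts on vacuoles of microbes and on inflammasomes, stood at 0.102, 0.0552 and 0.0415 CPM in the unstimulated and 403, 363 and 285 CPM in the LPS libraries, a log2 fold change of 12.29 (SE 0.254, adjusted p = 1.37e-07). Tnn, an extracellular matrix tenascin, stood at 0.131, 0.166 and 0.0831 CPM in the unstimulated and 299, 253 and 303 CPM in the LPS libraries (log2FC 11.16). The cytokine gene Il1a stood at 0.355, 0.133 and 0.0997 CPM in the unstimulated and 526, 542 and 356 CPM in the LPS libraries (log2FC 11.15). No LPS library of these genes came near any unstimulated library. Among the next in size were Cxcl11 (log2FC 10.53), Rsad2 (log2FC 10.18), Cxcl10 (log2FC 9.95), Ccl5 (log2FC 9.53), Mir155hg (log2FC 8.93), Ifit1 (log2FC 8.900), Acod1 (log2FC 8.48) and Ifi205 (log2FC 8.32). Mir155hg is the host transcript of the miRNA miR-155. The annotation marks Cxcl11 as a polymorphic pseudogene, and 41.7% of its exonic length lies opposite exons of another gene. Ranked by p instead, the rises began with the tyrosine kinase Src, at 0.232, 0.199 and 0.199 CPM in the unstimulated and 45.9, 44.1 and 45.2 CPM in the LPS libraries (log2FC 7.73, SE 0.0833, adjusted p = 2.63e-08), and with Gadd45b (log2FC 7.72), Gbp2b (log2FC 6.41), Ccl5 and Gbp2 (log2FC 5.82). Gbp2 and Gbp2b belong to a family of similar genes, between which the counting could split reads.

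**Figure D2:**
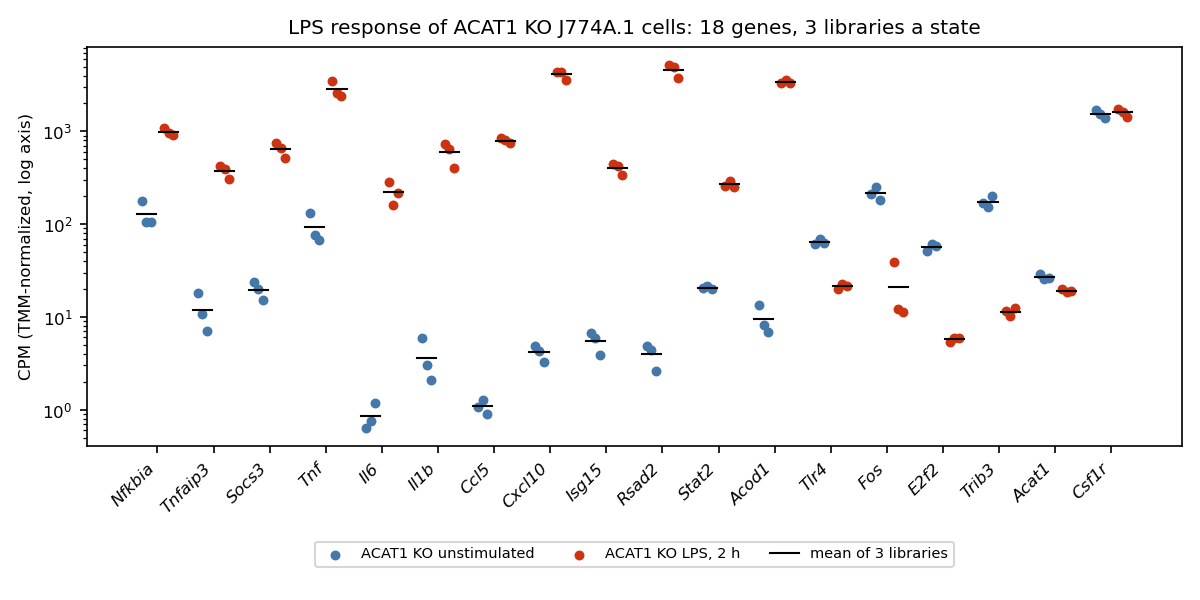
CPM on a log axis of 18 genes in the 3 unstimulated and 3 LPS libraries of ACAT1 KO cells, 1 point a library. For Csf1r alone the states overlap, while Cxcl10 and Rsad2 go from means of 4.15 and 3.96 CPM to 4114 and 4606 CPM and Tlr4, Fos, E2f2, Trib3 and Acat1 lie lower after LPS.

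The largest falls depended on a single library. Of the 12 largest, 10 (Hdgfl3, Grtp1, Wdr38, Tlcd3b, Cand2, Sla2, Snx22, Pde6h, Tlcd1 and Ptger1) were at least 4-fold higher in unstimulated replicate 2 than in both others. Wdr38, for example, stood at 0.203, 56.5 and 0.282 CPM in the unstimulated and 0.269, 0.341 and 0.287 CPM in the LPS libraries. Without replicate 2 only Snx22, Tlcd1, Angptl4 and Ccr1 of the 12 were called lower. Angptl4, an inhibitor of lipoprotein lipase, stood at 8.64, 9.62 and 11.4 CPM in the unstimulated and 0.748, 0.466 and 0.632 CPM in the LPS libraries (log2FC -4.01, SE 0.205, adjusted p = 2.98e-06), and Ccr1, a chemokine receptor, at 16.2, 27.1 and 52.8 CPM in the unstimulated and 1.31, 1.33 and 3.43 CPM in the LPS libraries (log2FC -3.98, SE 0.557, adjusted p = 0.000505). Over all genes, 1705 of the 1784 that fell at least 2-fold and 1797 of the 1814 that rose were called without replicate 2. In the fit without it, the largest falls after Angptl4 and Ccr1, a list chosen after its values were seen, were of Trib3 (log2FC -4.02), Hhex (log2FC -3.88), Lyl1 (log2FC -3.88), Plekhg3 (log2FC -3.86), Cnr2 (log2FC -3.82) and Irf2bp2 (log2FC -3.701). Trib3 is a pseudokinase gene of the integrated stress response, Hhex and Lyl1 encode transcription factors of blood cells, and Cnr2 encodes the cannabinoid receptor CB2. Among falls ranked by p in the full fit Hhex came first, at 54.01, 60.1 and 57.7 CPM in the unstimulated and 3.94, 3.67 and 3.79 CPM in the LPS libraries (log2FC -3.91, SE 0.0681, adjusted p = 6.65e-08), followed by Sipa1 (log2FC -2.63), Tmem154 (log2FC -2.83), Rab3il1 (log2FC -3.04), Samd1 (log2FC -2.71) and Ppfia4 (log2FC -2.23). All 6 were called in the fit without replicate 2.

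Genes were then grouped by their roles in the LPS response and in macrophages, and the counts of each group are read against 30.1% higher and 32.8% lower over all genes. The receptor itself fell while most of its signalling chain rose. Of the 31 genes of the TLR4 complex and its adaptors, 23 rose and 7 fell, with a median log2 fold change of 0.86. Tlr4 stood at 60.6, 68.3 and 62.9 CPM in the unstimulated and 20.2, 22.7 and 21.4 CPM in the LPS libraries (log2FC -1.57, SE 0.0684, adjusted p = 1.50e-06). Every LPS library lay below every unstimulated one. Ticam2, the bridging adaptor TRAM of the endosomal branch, fell too (log2FC -1.29), as did the kinase Irak4 (log2FC -0.56) and the factor Irf3, from 37.1 ± 2.905 to 29.7 ± 2.37 CPM (log2FC -0.32). Irak1 (log2FC -0.26), Tab1 (log2FC -0.21, a call lost under 7 of 20 alternatives) and Ly86 (log2FC -0.17), the partner of Cd180, were the other members called lower. Myd88 stood at 53.2, 46.7 and 45.95 CPM in the unstimulated and 286, 279 and 247 CPM in the LPS libraries (log2FC 2.48, SE 0.0867, adjusted p = 6.42e-07). The kinases Irak2 (log2FC 1.47), Ikbke (log2FC 2.37) and Map3k8 (log2FC 2.34) rose, and so did Tank (log2FC 1.64), a partner of TBK1, and the transcription factor Irf5 (log2FC 1.75). The largest change of the list was of Peli1, an E3 ubiquitin ligase of TLR signalling, which went from 28.1 ± 1.403 to 1002 ± 59.6 CPM (log2FC 5.16).

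All 11 NF-kB subunits and I-kappa-B proteins rose, 10 of them at least 2-fold, with a median of 2.32. Nfkb1, which encodes p105 and p50, stood at 279, 281 and 278 CPM in the unstimulated and 1439, 1394 and 1347 CPM in the LPS libraries (log2FC 2.32, SE 0.0536, adjusted p = 1.50e-07). The inhibitor gene Nfkbia, which encodes I-kappa-B alpha, stood at 177, 104 and 106 CPM in the unstimulated and 1085, 965 and 914 CPM in the LPS libraries (log2FC 2.94, SE 0.217, adjusted p = 1.69e-05). Nfkbie (log2FC 4.14), Bcl3 (log2FC 3.18), Nfkb2 (log2FC 2.07), Nfkbib (log2FC 2.19), Rela (log2FC 1.57) and Relb (log2FC 1.39) rose as well. Transcripts of activators and of inhibitors of the same pathway thus rose together in these libraries. The smallest change was of Nfkbid (log2FC 0.52), whose call was lost under 9 of 20 alternative settings, among them upper-quartile scaling and the fit without unstimulated replicate 2 (adjusted p = 0.0695).

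Feedback inhibitors of signalling and factors of mRNA decay split into rising and falling genes. Of 20 members tested, 15 rose and 5 fell, with a median of 2.13. Tnfaip3, the deubiquitinase A20, stood at 18.2, 10.7 and 6.997 CPM in the unstimulated and 425, 394 and 309 CPM in the LPS libraries (log2FC 4.97, SE 0.3600, adjusted p = 1.53e-05). The suppressors of cytokine signalling rose from low levels, Socs3 to 756, 662 and 514 CPM (log2FC 5.03), Socs1 to 50.4, 43.2 and 36.4 CPM (log2FC 5.298) and Cish to 48.7, 48.4 and 36.8 CPM (log2FC 5.67). Zc3h12c, of the Regnase family of RNases (log2FC 4.92), Rc3h1, the mRNA decay factor Roquin-1 (log2FC 1.93), and Tnip1, a partner of A20 (log2FC 2.98), rose as well. Those that fell were Dusp1, a phosphatase of p38 and JNK, at 386, 419 and 336 CPM in the unstimulated and 58.9, 51.1 and 34.98 CPM in the LPS libraries (log2FC -2.98, SE 0.194, adjusted p = 9.18e-06), the mRNA decay factors Zfp36l1 (log2FC -2.11) and Zfp36l2 (log2FC -2.44), the pseudokinase Trib1 (log2FC -2.01) and the deubiquitinase Cyld (log2FC -0.20), which lost its call under 5 of 20 alternatives, the fit without unstimulated replicate 2 among them.

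At 2 hr many immediate early genes stood below their unstimulated level. Of 24 members tested, 6 rose and 12 fell, with a median of -0.25. Fos stood at 214, 253 and 184 CPM in the unstimulated and 39.2, 12.2 and 11.2 CPM in the LPS libraries (log2FC -3.38, SE 0.493, adjusted p = 0.000623), and Jun at 96.1, 88.7 and 78.9 CPM in the unstimulated and 37.5, 32.8 and 34.02 CPM in the LPS libraries (log2FC -1.34, SE 0.0862, adjusted p = 8.74e-06). Both encode subunits of the AP-1 factor, and for neither did the states overlap. The Kruppel-like factors Klf2 (log2FC -2.78), Klf4 (log2FC -2.44) and Klf10 (log2FC -2.56) fell, as did Ier2 (log2FC -1.47). Of the genes that rose, Junb went to 754, 694 and 645 CPM (log2FC 1.76), Atf3 to 697, 571 and 631 CPM (log2FC 1.63), Maff to 55.9, 47.04 and 49.5 CPM (log2FC 2.51) and Fosl1 to 2.12, 1.45 and 1.28 CPM (log2FC 4.89), with Srf (log2FC 0.55) and Ier5 (log2FC 1.04). The dual-specificity phosphatases, which dephosphorylate MAP kinases, went both ways. Dusp6 (log2FC -2.77) and Dusp7 (log2FC -2.54) fell beside Dusp1, Dusp10 (log2FC -0.67) and Dusp22 (log2FC -0.45), whereas Dusp2 (log2FC 4.14), Dusp5 (log2FC 1.96), Dusp16 (log2FC 0.78) and Dusp4 (log2FC 0.60) rose. In all, 5 of 12 rose and 5 fell, 41.7% each, against 30.1% and 32.8% over all genes.

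Secreted cytokines were among the genes with the largest changes. Of 23 members tested, 18 rose and 2 fell, with a median of 2.07, and 17 of the rises were at least 2-fold. Tnf, the main early cytokine of macrophages, stood at 132, 76.9 and 67.6 CPM in the unstimulated and 3497, 2602 and 2416 CPM in the LPS libraries (log2FC 4.94, SE 0.306, adjusted p = 7.25e-06). Il6 stood at 0.631, 0.751 and 1.17 CPM in the unstimulated and 286, 160 and 214 CPM in the LPS libraries (log2FC 8.01, SE 0.324, adjusted p = 1.11e-06), and Il1b at 5.86, 3.02 and 2.07 CPM in the unstimulated and 726, 652 and 407 CPM in the LPS libraries (log2FC 7.33, SE 0.4602, adjusted p = 7.67e-06). LPS replicate 1 was the highest library for each of these 3 genes, and the states were far apart in all. The growth factor gene Csf1 (log2FC 5.101), the TNF family ligands Tnfsf15 (log2FC 5.56) and Tnfsf9 (log2FC 2.07), Il15 (log2FC 4.13), the IL-27 and IL-35 subunit gene Ebi3 (log2FC 1.41) and Pdgfb (log2FC 2.98) rose. Il10, whose product dampens inflammation, rose from 1.204, 1.05 and 0.972 CPM to 6.46, 3.23 and 2.43 CPM (log2FC 1.91), with the highest value in LPS replicate 1. The 2 that fell were Osm, encoding oncostatin M (log2FC -1.94), and Gdf15 (log2FC -1.86).

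Chemokine ligands took a growing share of the transcripts. The 9 CC chemokine genes tested went from a summed level of 2920 to 30700 TPM and the 6 CXC chemokine genes from 1631 to 7904 TPM. Ccl5, which attracts T cells and monocytes, stood at 1.07, 1.28 and 0.906 CPM in the unstimulated and 839, 807 and 746 CPM in the LPS libraries (log2FC 9.53, SE 0.139, adjusted p = 4.21e-08). Ccl3 went from 189.5 ± 53.6 to 2828 ± 236 CPM (log2FC 3.900) and Ccl4 from 134 ± 38.1 to 2738 ± 293 CPM (log2FC 4.35). The monocyte attractants Ccl2 (log2FC 2.62), Ccl7 (log2FC 3.05) and Ccl12 (log2FC 2.43) rose, as did Ccl9 (log2FC 1.06), whereas Ccl6 was called lower (log2FC -0.32), a call lost under 7 of 20 alternatives. Of the CXC genes, Cxcl10, a ligand of CXCR3 induced by interferon, stood at 4.87, 4.33 and 3.24 CPM in the unstimulated and 4404, 4390 and 3550 CPM in the LPS libraries (log2FC 9.95, SE 0.213, adjusted p = 1.37e-07). The neutrophil attractant Cxcl2 rose from 368 ± 115 to 1001 ± 342 CPM (log2FC 1.44) and Cxcl16 from 160.2 ± 20.7 to 479 ± 43.5 CPM (log2FC 1.58). Pf4, with 240, 149.7 and 188 CPM before and 248, 193 and 207 CPM after LPS, and Ppbp were not called.

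Receptors of chemokines and cytokines went both ways. Of 35 members tested, 16 rose and 11 fell, 45.7% and 31.4%, against 30.1% and 32.8% over all genes. Next to Ccr1, the monocyte receptor Ccr2 stood at 29.4, 26.3 and 26.2 CPM in the unstimulated and 8.02, 6.29 and 5.71 CPM in the LPS libraries (log2FC -2.03, SE 0.129, adjusted p = 8.08e-06). Cx3cr1 (log2FC -1.59), Cxcr4 (log2FC -0.43), Il17ra (log2FC -2.21), Tgfbr2 (log2FC -1.08) and Il6ra (log2FC -0.84) fell too. Ccrl2, which binds chemerin without signalling, went from 34.4 ± 6.83 to 917 ± 93.6 CPM (log2FC 4.74). The TNF receptor gene Tnfrsf1b stood at 127, 136 and 133 CPM in the unstimulated and 1565, 1620 and 1650 CPM in the LPS libraries (log2FC 3.61, SE 0.0599, adjusted p = 6.14e-08). Il4ra (log2FC 2.46), Il15ra (log2FC 2.398) and the complement receptor genes C3ar1 (log2FC 1.86) and C5ar1 (log2FC 1.83) rose. The IFN-β receptor chains were not called, Ifnar1 standing at 80.3, 77.2 and 76.2 CPM before and 77.2, 82.5 and 82.6 CPM after LPS and Ifnar2 at 100.4, 98.8 and 95.8 CPM before and 95.8, 102 and 97.4 CPM after LPS.

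Every tested interferon-stimulated gene rose, on a list chosen with earlier results of these data known. All 64 were called higher, 61 of them at least 2-fold, with a median of 3.31 and a range from 0.17 to 12.29. Their summed level went from 7537 to 28260 TPM. Upper-quartile scaling left 63 called, and so did leaving out unstimulated replicate 2, without which Ifitm3 (log2FC 0.17 in the full fit) lost its call, as it did under 10 of 20 alternatives in all. Of the factors that carry the IFN-β signal, Stat2 stood at 20.4, 21.8 and 19.8 CPM in the unstimulated and 258, 295 and 254 CPM in the LPS libraries (log2FC 3.71, SE 0.0817, adjusted p = 1.37e-07), and Irf9 went from 42.2 ± 2.48 to 149.8 ± 7.56 CPM (log2FC 1.83). Irf7, the factor that amplifies interferon production, stood at 25.01, 26.2 and 13.3 CPM in the unstimulated and 322, 349.8 and 254 CPM in the LPS libraries (log2FC 3.84, SE 0.273, adjusted p = 1.40e-05). Isg15, a ubiquitin-like modifier, stood at 6.64, 5.91 and 3.84 CPM in the unstimulated and 448, 423 and 336 CPM in the LPS libraries (log2FC 6.202, SE 0.238, adjusted p = 8.70e-07). In each of these the 3 LPS libraries lay above the 3 unstimulated ones.

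Among the antiviral effectors, Rsad2, which encodes viperin, stood at 4.88, 4.42 and 2.58 CPM in the unstimulated and 5173, 4918 and 3725 CPM in the LPS libraries (log2FC 10.18, SE 0.318, adjusted p = 4.11e-07). Ifit1, which binds viral RNA ends, stood at 4.300, 3.98 and 2.54 CPM in the unstimulated and 1889, 1806 and 1467 CPM in the LPS libraries (log2FC 8.900, SE 0.251, adjusted p = 2.90e-07). Mx1 went from 2.703 ± 0.817 to 311 ± 39.8 CPM (log2FC 6.86), Oasl1 from 7.44 ± 3.58 to 716 ± 238 CPM (log2FC 6.599) and Cmpk2 from 5.82 ± 1.59 to 1646 ± 265 CPM (log2FC 8.15). The sensors of viral RNA rose, Ifih1, which encodes MDA5 (log2FC 5.35), and Ddx58, which encodes RIG-I (log2FC 2.64), and so did Usp18, which removes ISG15 and restrains the receptor (log2FC 4.89). The guanylate-binding proteins and related GTPases Gbp3 (log2FC 4.97), Gbp7 (log2FC 5.45), Irgm2 (log2FC 5.52) and Trim21, an antibody receptor of the cytosol (log2FC 3.44), had some of the smallest p-values of the list. The Gbp, Ifit, Oas and Mx genes belong to families of similar copies, so that single members are less certain than the family.

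Ifnb1, the gene of IFN-β itself, was listed only in the LPS table, so no fold change was computed. For genes listed in 1 table, CPM are of the library totals without TMM scaling. In ACAT1 KO cells Ifnb1 stood at 109, 84.4 and 58.4 CPM after LPS and in WT cells at 21.6, 33.5 and 49.7 CPM. The ranges did not overlap, but the difference between genotypes was not tested. How often genotypes lay apart after LPS over all genes was not counted. Of the 1175 genes listed only after LPS, 56 had a mean of at least 1 CPM and 11 of at least 5 CPM in ACAT1 KO cells, and their median was 0.0862 CPM. After Ifnb1 the highest with gene names were the nuclear receptor Nr4a3 at 23.4, 18.5 and 16.5 CPM, the chemokine Ccl22 at 12.7, 14.7 and 26.6 CPM and the cytokines Csf2, encoding GM-CSF, at 12.4, 12.1 and 13.1 CPM and Il12b, the IL-12 p40 chain, at 21.9, 8.45 and 7.21 CPM. For Il12b the KO replicate 1 value was the highest of all, and the WT libraries stood at 3.96, 4.41 and 3.98 CPM. Mmp25, Vcam1, Ccl20 and Cxcl9 followed. A gene entered a table only with at least 4 counts in 5 of its 6 libraries. Of the 845 genes listed only for unstimulated cells, 1 had a mean of at least 5 CPM in KO cells and 154 were at least 4-fold higher in replicate 2 than in both others.

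Letters known to be bound by NF-kB and by interferon-activated factors were searched for in the stretch from 250 bases before to 50 bases after the transcription start. The RefSeq windows of 2 interferon-stimulated genes, of the chemokine Cxcl10 and of the NF-kB inhibitor Nfkbia are printed 5′ to 3′ along the gene's strand in GRCm38.p6, with capitals marking matches, on either strand, to the kB letters GGNNTTTCC or to the ISRE letters GAAANNGAA. They show how the match is placed in strongly rising genes of both branches. Cxcl10 is at chr5:92348840-92349139 on the minus strand, Ifit1 at chr19:34640639-34640938 on the plus strand, Isg15 at chr4:156200769-156201068 on the minus strand and Nfkbia at chr12:55492598-55492897 on the minus strand.
Cxcl10: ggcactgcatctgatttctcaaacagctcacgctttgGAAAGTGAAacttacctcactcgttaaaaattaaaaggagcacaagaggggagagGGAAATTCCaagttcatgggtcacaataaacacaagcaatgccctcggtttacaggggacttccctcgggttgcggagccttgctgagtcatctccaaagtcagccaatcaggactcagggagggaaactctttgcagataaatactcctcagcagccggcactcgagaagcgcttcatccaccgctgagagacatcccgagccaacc
Ifit1: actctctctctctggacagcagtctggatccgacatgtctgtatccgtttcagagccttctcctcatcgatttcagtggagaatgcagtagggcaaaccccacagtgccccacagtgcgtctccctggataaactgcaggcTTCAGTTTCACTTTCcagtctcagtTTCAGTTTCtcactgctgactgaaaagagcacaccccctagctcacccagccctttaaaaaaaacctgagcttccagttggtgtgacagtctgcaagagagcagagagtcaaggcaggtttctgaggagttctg
Isg15: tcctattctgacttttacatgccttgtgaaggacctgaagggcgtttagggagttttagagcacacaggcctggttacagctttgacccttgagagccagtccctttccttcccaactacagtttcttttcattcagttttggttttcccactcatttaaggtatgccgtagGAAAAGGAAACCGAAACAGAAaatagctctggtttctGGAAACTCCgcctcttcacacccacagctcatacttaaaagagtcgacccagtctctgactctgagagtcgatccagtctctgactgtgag
Nfkbia: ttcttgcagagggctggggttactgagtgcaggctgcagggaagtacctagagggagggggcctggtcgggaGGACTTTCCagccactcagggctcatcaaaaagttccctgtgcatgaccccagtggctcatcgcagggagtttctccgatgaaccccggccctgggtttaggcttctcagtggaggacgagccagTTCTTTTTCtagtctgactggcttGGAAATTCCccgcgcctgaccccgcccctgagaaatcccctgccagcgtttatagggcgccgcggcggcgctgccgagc

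In these windows Cxcl10 held an ISRE match that begins 213 bases and a kB match that begins 158 bases before the start. Ifit1 held ISRE matches at 109, 103 and 84 bases, Isg15 ISRE matches at 78, 72 and 66 bases and a kB match at 41 bases, and Nfkbia kB matches at 178 and 29 bases and an ISRE match at 53 bases before the start. A match of letters shows neither binding nor use. Windows were found for 10310 of the tested genes, and in these 6.19% held kB letters, 7.51% ISRE letters, 5.24% AP-1 letters (TGANTCA) and 7.39% a TATA box (TATAAA). Over all 27025 windows of the table, 5.72% held kB and 8.57% ISRE letters. In 116 windows with both, 14 had matches that share bases. Of the 1193 windows of genes that rose at least 2-fold, 10.3% held kB and 12.2% ISRE letters. Of the 194 windows of genes that rose at least 8-fold the shares were 16% and 28.9%, with AP-1 letters in 15.5% and a TATA box in 17.5%. Of the 1183 windows of genes that fell at least 2-fold, 5.07% held kB and 6.59% ISRE letters. Among the interferon-stimulated genes, 26 of 50 windows held ISRE letters, 52.0%, and among the NF-kB genes 4 of 8 held kB letters. The ratio of observed to expected CpG, low where CpG is rare, had a median of 0.401 in the windows of genes that rose at least 8-fold and of 0.764 over all tested genes. Gene length differed little, with median spans of 15.1 kb over all tested genes, 18 kb for genes that rose and 14.9 kb for genes that fell at least 2-fold. These shares are descriptions without a test.

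**Figure D3:**
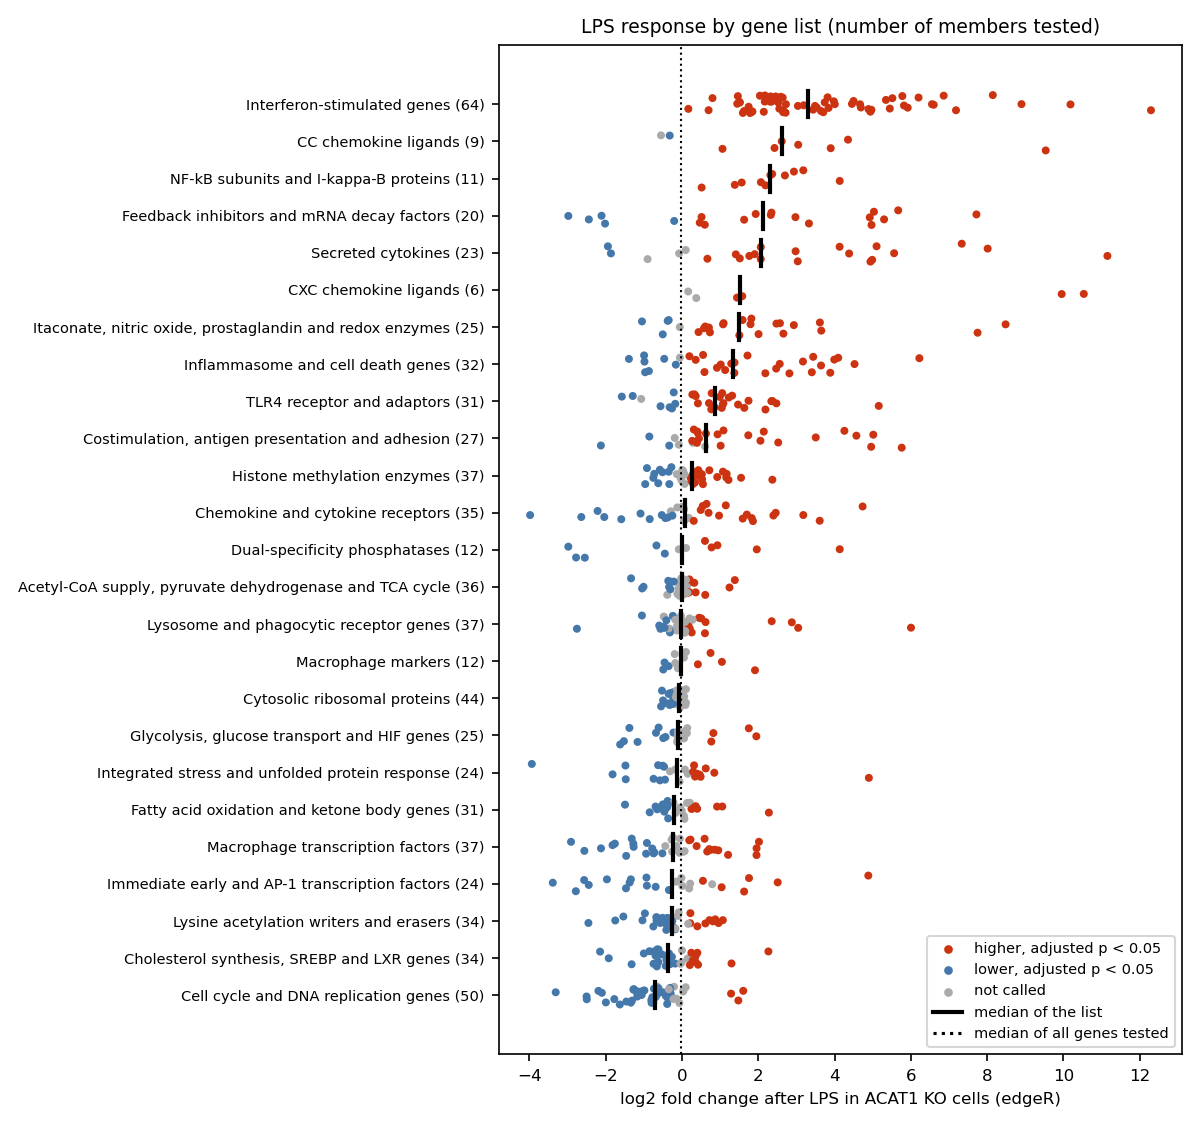
Log2 fold change after LPS of each member (points) of the gene lists in ACAT1 KO cells, with each list's median as a bar and the number of members tested in brackets. The dotted line is the median of all genes, -0.03, the interferon-stimulated genes have the highest median of the lists, 3.31, and the cell cycle genes the lowest, -0.71.

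Genes of inflammasomes and cell death mostly rose. Of 32 members tested, 24 rose and 7 fell, with a median of 1.33. The inflammasome sensor gene Nlrp3 stood at 222, 184 and 189 CPM in the unstimulated and 1158, 1055 and 1082 CPM in the LPS libraries (log2FC 2.47, SE 0.0883, adjusted p = 6.84e-07), and Casp4, the caspase that binds cytosolic LPS, at 35.5, 31.8 and 30.3 CPM in the unstimulated and 224, 237 and 227 CPM in the LPS libraries (log2FC 2.82, SE 0.0728, adjusted p = 2.03e-07). The adaptor gene Pycard, which encodes ASC, fell from 74.5 ± 3.97 to 40.9 ± 1.29 CPM (log2FC -0.87), and Nlrp1b fell too (log2FC -0.96). Survival genes rose, namely Cflar, which encodes the caspase-8 inhibitor c-FLIP (log2FC 3.89), Birc2 (log2FC 1.72) and Bcl2a1d (log2FC 4.096), the last with near-identical neighbours. The pro-apoptotic Bcl2l11, encoding BIM (log2FC 3.99), and the death receptor gene Fas (log2FC 3.17) also rose, as did the kinase gene Ripk2 (log2FC 3.44). Those that fell included the anti-apoptotic Bcl2 (log2FC -1.39) and the pro-apoptotic Bbc3 (log2FC -0.98), Pmaip1 (log2FC -0.99) and Bax (log2FC -0.16, a call lost under 10 of 20 alternatives), with Casp8 (log2FC -0.46). Genes of opposite action on cell death were thus found in both directions.

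For T cell costimulation, antigen presentation and adhesion, 20 of 27 genes rose and 3 fell, with a median of 0.63. Cd40, a costimulatory receptor, stood at 8.16, 7.203 and 8.601 CPM in the unstimulated and 463, 434 and 405 CPM in the LPS libraries (log2FC 5.76, SE 0.0986, adjusted p = 6.49e-08), and Cd274, which encodes PD-L1, at 4.82, 5.05 and 4.83 CPM in the unstimulated and 173, 149 and 136 CPM in the LPS libraries (log2FC 4.96, SE 0.104, adjusted p = 1.37e-07). Icam1, a ligand of leukocyte integrins, went from 86.2 ± 10.3 to 1650 ± 94.7 CPM (log2FC 4.26). Cd83 (log2FC 5.02), Icosl (log2FC 3.51), Cd44 (log2FC 2.52), Cd86 (log2FC 1.09) and the peptide transporter Tap1 (log2FC 2.15) rose as well. Cd28, better known from T cells, fell from 11.5 ± 0.874 to 2.63 ± 0.361 CPM (log2FC -2.12), and Selplg, a selectin ligand (log2FC -0.33), was called lower.

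Of 25 genes of enzymes that make itaconate, nitric oxide, prostaglandins and reactive oxygen or that guard against oxidants, 20 rose and 4 fell, with a median of 1.505. Acod1, which makes itaconate, stood at 13.5, 8.12 and 6.85 CPM in the unstimulated and 3316, 3598 and 3301 CPM in the LPS libraries (log2FC 8.48, SE 0.302, adjusted p = 6.78e-07). Nos2, the inducible nitric oxide synthase, stood at 0.247, 0.166 and 0.166 CPM in the unstimulated and 46.1, 45.5 and 36.1 CPM in the LPS libraries (log2FC 7.75, SE 0.179, adjusted p = 1.50e-07). All LPS libraries of both lay far above the unstimulated ones. Ptgs2, the inducible cyclooxygenase, went from 38.6 ± 17.6 to 486 ± 126 CPM (log2FC 3.65), and the NADPH oxidase subunit gene Cybb from 792 ± 118 to 2754 ± 194 CPM (log2FC 1.798). Nfe2l2, encoding NRF2, rose (log2FC 1.82), and the antioxidant genes Txnrd1 (log2FC 2.48), Sqstm1 (log2FC 2.66), Sod2 (log2FC 2.93), Hmox1 (log2FC 2.57) and Slc7a11 (log2FC 3.62) rose. The phospholipase gene Pla2g4a (log2FC -1.05), the constitutive cyclooxygenase Ptgs1 (log2FC -0.50) and the leukotriene genes Alox5 (log2FC -0.35) and Alox5ap (log2FC -0.37) fell.

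Of the 25 genes of glycolysis, glucose transport and hypoxia signalling, 4 rose and 9 fell, with a median of -0.10. The transporter gene Slc2a6 stood at 223, 221 and 205 CPM in the unstimulated and 743, 779.8 and 669 CPM in the LPS libraries (log2FC 1.75, SE 0.0747, adjusted p = 1.38e-06), and Pfkfb3, which makes an activator of phosphofructokinase, went from 27.7 ± 3.58 to 107 ± 17.4 CPM (log2FC 1.95). Hif1a (log2FC 0.77) and Hk2 (log2FC 0.82) also rose. The glucose transporter gene Slc2a3 (log2FC -1.38), the pyruvate dehydrogenase kinase Pdk1 (log2FC -1.52), Ddit4 (log2FC -1.62) and Pfkfb4 (log2FC -0.68) fell. Core enzymes such as Pkm, at 2560, 1956 and 2255 CPM before and 2497, 2266 and 2268 CPM after LPS, were not called.

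Of the 31 genes tested of fatty acid oxidation and ketone bodies, to which ACAT1 belongs, 15 fell and 7 rose, with a median of -0.22. The acyl-CoA synthetase Acsl3 fell most, at 138, 118 and 121 CPM in the unstimulated and 46.7, 44.7 and 42.9 CPM in the LPS libraries (log2FC -1.49, SE 0.0738, adjusted p = 2.57e-06). Echs1 (log2FC -0.69), Ech1 (log2FC -0.51) and Acat2, the cytosolic thiolase (log2FC -0.65), fell by less. The genes that rose included Acsl1, at 61.7, 54.9 and 53.05 CPM in the unstimulated and 344, 238 and 242 CPM in the LPS libraries (log2FC 2.28, SE 0.154, adjusted p = 1.07e-05), and genes of the carnitine route into mitochondria, Cpt1a, from 19.4 ± 0.928 to 36.8 ± 2.15 CPM (log2FC 0.92), and Slc25a20 (log2FC 0.40). Eci2 (log2FC 1.06), Acsl4 (log2FC 0.36), Acsl5 (log2FC 0.26) and Hadha (log2FC 0.25) were also called higher.

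Of the 36 genes of acetyl-CoA supply, pyruvate dehydrogenase and the TCA cycle, 9 rose, 8 fell and 19 were not called. Idh1, the cytosolic isocitrate dehydrogenase, stood at 92.5, 85.6 and 110.3 CPM in the unstimulated and 45.3, 41.04 and 57.4 CPM in the LPS libraries (log2FC -1.005, SE 0.141, adjusted p = 0.000513). Pdk2 (log2FC -1.33), Pdp1 (log2FC -1.04), Pdha1 (log2FC -0.33), Idh2 (log2FC -0.36), Mdh1 (log2FC -0.30) and Fh1 (log2FC -0.29) fell, while Me1 (log2FC 1.39), Pdp2 (log2FC 1.25), Pdhx (log2FC 0.61) and citrate synthase, Cs (log2FC 0.36), rose. Acly, which makes cytosolic acetyl-CoA from citrate, stood at 243, 236 and 244 CPM before and 250.3, 244 and 248 CPM after LPS and was not called.

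Of the 34 genes of cholesterol synthesis, SREBP and LXR, 21 fell and 9 rose, with a median of -0.36. The desaturase gene Scd2 stood at 563, 593 and 519 CPM in the unstimulated and 126, 129.8 and 123 CPM in the LPS libraries (log2FC -2.14, SE 0.0667, adjusted p = 4.04e-07). Scd1 (log2FC -1.92) and the sterol synthesis genes Dhcr7 (log2FC -1.32), Msmo1 (log2FC -0.997), Sc5d (log2FC -0.75) and Sqle (log2FC -0.65) fell. Srebf2 (log2FC 0.40), Scap (log2FC 0.25) and Insig2 (log2FC 0.36), regulators of sterol synthesis, rose. The LXR gene Nr1h3 (log2FC 1.300) and, among LXR targets, Mylip (log2FC 2.27) and Abca1 (log2FC 0.29) were higher. Abca1 lost its call with upper-quartile scaling.

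Of the 34 writers, readers and erasers of lysine acetylation, 20 fell and 9 rose, with a median of -0.25. The class II deacetylase gene Hdac5 stood at 49.97, 55.03 and 47.97 CPM in the unstimulated and 23.99, 27.01 and 23.7 CPM in the LPS libraries (log2FC -1.03, SE 0.0764, adjusted p = 1.70e-05). Hdac7 (log2FC -2.45), the mitochondrial deacetylase Sirt3 (log2FC -0.97) and the acetyltransferase Kat2b (log2FC -0.67) fell. The acetyltransferases Ep300, from 82.8 ± 7.71 to 127 ± 3.64 CPM (log2FC 0.62), Crebbp (log2FC 0.87), Kat6a (log2FC 1.07) and Kat5 (log2FC 0.40), the readers of acetylated histones Brd2 (log2FC 0.81) and Brd9 (log2FC 0.22) and the deacetylases Sirt1 (log2FC 0.96) and Sirt2 (log2FC 0.22) rose. With upper-quartile scaling 7 in place of 9 were higher. Of 37 enzymes of histone methylation, 20 rose and 10 fell, with a median of 0.25. Kdm6b, the H3K27 demethylase JMJD3, stood at 25.5, 12.9 and 11.4 CPM in the unstimulated and 99.04, 87.2 and 72.6 CPM in the LPS libraries (log2FC 2.37, SE 0.303, adjusted p = 0.000312). The H3K79 methyltransferase Dot1l (log2FC 1.55), Kmt2b (log2FC 1.22), Setd1b (log2FC 1.16), Kdm5c (log2FC 1.17), Kdm2a (log2FC 0.72) and Kdm1a (log2FC 0.53) rose. The Polycomb genes Ezh2 (log2FC -0.92) and Suz12 (log2FC -0.28), the H3K9 methyltransferases Ehmt1 (log2FC -0.33) and Ehmt2 (log2FC -0.75), and Kdm2b (log2FC -0.96), Setd7 (log2FC -0.72), Nsd1 (log2FC -0.62) and Nsd2 (log2FC -0.58) fell.

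Most cell cycle genes fell. Of 50 members tested, 3 rose and 38 fell, with the lowest median of the lists with more than 3 tested members, -0.71. Ccnd1, the G1 cyclin D1, stood at 510.5, 611 and 531 CPM in the unstimulated and 87.7, 109.6 and 95.3 CPM in the LPS libraries (log2FC -2.498, SE 0.108, adjusted p = 1.44e-06). The transcription factor gene E2f2 stood at 51.6, 60.6 and 58.2 CPM in the unstimulated and 5.39, 5.93 and 5.88 CPM in the LPS libraries (log2FC -3.31, SE 0.0832, adjusted p = 1.91e-07), and the replication licensing gene Cdt1 at 151, 151 and 163 CPM in the unstimulated and 46.4, 53.4 and 50.8 CPM in the LPS libraries (log2FC -1.63, SE 0.0683, adjusted p = 1.31e-06). In all 3 the states were wide apart. Ccne1 (log2FC -2.19), Ccnd3 (log2FC -1.46), Cdk2 (log2FC -1.05), E2f8 (log2FC -2.098) and the inhibitor Cdkn2c (log2FC -2.49) fell. The 3 that rose were Cdkn1a, the inhibitor p21, from 426 ± 8.04 to 1297 ± 170 CPM (log2FC 1.61), Cdk6 (log2FC 1.29) and Plk2 (log2FC 1.48). The proliferation marker Mki67 was not called, at 556, 817 and 654 CPM before and 586, 704 and 647 CPM after LPS. Of the promoter windows of 42 cell cycle genes, 35.7% held E2F letters (TTTNNCGC) and 66.7% a CCAAT box, against 8.64% and 39.3% of windows of all tested genes.

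The integrated stress response and the unfolded protein response went both ways, with 9 of 24 higher and 10 lower. These shares were 37.5% and 41.7%, against 30.1% and 32.8% over all genes. Trib3 stood at 169, 154 and 199 CPM in the unstimulated and 11.5, 10.3 and 12.3 CPM in the LPS libraries (log2FC -3.93, SE 0.1198, adjusted p = 3.71e-07), and Sesn2 (log2FC -1.82), Ddit3, encoding CHOP (log2FC -1.48), Psat1 (log2FC -0.62) and the sensor gene Ern1 (log2FC -0.74) fell. Hspa5, the chaperone BiP, stood at 1774, 1660 and 1674 CPM in the unstimulated and 2980, 3130 and 3093 CPM in the LPS libraries (log2FC 0.85, SE 0.0541, adjusted p = 8.29e-06), and Dnajb9 (log2FC 0.62), Calr (log2FC 0.35), Canx (log2FC 0.32) and the heat shock gene Hspa1b (log2FC 4.900) rose. Lysosome and phagocytic receptor genes were split evenly, with 11 of 37 higher and 11 lower. Both shares, 29.7%, lay near the 30.1% higher and 32.8% lower over all genes. Marco, a scavenger receptor, stood at 1.15, 0.652 and 0.906 CPM in the unstimulated and 68.6, 47.9 and 61.1 CPM in the LPS libraries (log2FC 6.004, SE 0.224, adjusted p = 8.01e-07), and Clec4e, the receptor Mincle, at 338, 301 and 366 CPM in the unstimulated and 2612, 2631 and 3064 CPM in the LPS libraries (log2FC 3.05, SE 0.102, adjusted p = 5.22e-07). Mitf (log2FC 2.35) and Axl (log2FC 2.88) rose, while Tfeb, a regulator of lysosome genes, fell from 16.9 ± 1.17 to 2.51 ± 0.246 CPM (log2FC -2.75), as did Neu1 (log2FC -0.59), Trem2 (log2FC -0.41), Fcgr1 (log2FC -0.49) and Fcgr3 (log2FC -0.56).

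Transcription factors of the macrophage lineage changed in both directions, 13 of 37 higher and 15 lower. These shares, 35.1% and 40.5%, were not far from the 30.1% and 32.8% over all genes. Irf8, a factor of monocyte development, stood at 227, 236 and 240.2 CPM in the unstimulated and 46.3, 39.6 and 33.8 CPM in the LPS libraries (log2FC -2.56, SE 0.112, adjusted p = 1.58e-06). Maf (log2FC -1.76), a factor of resting macrophages, Rxra (log2FC -1.46) and Fli1 (log2FC -1.27) fell. Spi1, which encodes PU.1, stood at 381, 327 and 338 CPM in the unstimulated and 617, 581 and 563 CPM in the LPS libraries (log2FC 0.75, SE 0.0741, adjusted p = 7.79e-05). Zeb2 (log2FC 1.96), Stat3 (log2FC 1.21), Stat5a (log2FC 1.96), Bhlhe40 (log2FC 2.02), Cebpb (log2FC 0.59) and Cebpd (log2FC 0.66) rose.

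Ribosomal protein and mitochondrial transcripts took a smaller share of the counts, before TMM scaling, after LPS. Genes with symbols of Rpl or Rps and a number made up 6.84% to 7.57% of counts in the unstimulated and 5.18% to 5.37% in the LPS libraries. Of 44 cytosolic ribosomal protein genes tested, after TMM scaling, edgeR called 0 higher and 12 lower, the median being -0.09. The share lower, 27.3%, was below the 32.8% over all genes. With an unadjusted p under 0.05 as the threshold the counts were 0 and 16, and with DESeq2 and with limma-voom 0 and 13. Without unstimulated replicate 2, 22 were called lower. Rps14 (log2FC -0.55), Rpl22 (log2FC -0.52) and Rps7 (log2FC -0.49) fell most. Genes of the mitochondrial genome made up 3.60% to 4.04% and 2.14% to 2.25% of counts, and of its 13 protein-coding genes edgeR called 10 lower and 0 higher, their median being -0.51. The count higher was also 0 with an unadjusted p under 0.05, by DESeq2 and by limma-voom.

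The WT libraries, which share none with the KO comparison, were fitted in the same way. In them 16069 genes were tested, 4391 were higher, 27.3%, and 4469 lower, 27.8%. WT unstimulated replicate 1 stood apart, with 9.32% of its counts in mitochondrial genes, against 2.14% to 4.04% in the other 11 libraries, and 11.8% in its 10 highest genes, against 5.24% to 6.74%. Without it 4035 genes were called higher and 3985 lower in WT cells, the median of the interferon-stimulated genes in WT cells was 2.33, and the interaction gave 12 more positive and 15 more negative genes. Of the genes that rose at least 2-fold in KO cells 90.4% were called higher in WT cells, and of those that fell 91.3% were called lower. Among 15874 genes tested in both, 4042 rose in both and 3965 fell in both. The 4 called in opposite directions, Gm28875, Adam8, Tmem131l and Ccp110, were lower in KO and higher in WT cells. Across these genes, which are not independent replicates and share each library's depth, Pearson's r of the log2 fold changes was 0.953. Hdgfl3 and Wdr38, high in KO unstimulated replicate 2, were also called lower in WT cells (log2FC -6.82 and -6.55). For 213 of the 245 genes high in that library, WT unstimulated replicates 1 and 2 lay at least 4-fold above replicate 3. The part of such genes in r and in the shares called in both genotypes was not tested. The medians of the lists in KO and WT cells were 0.86 and 0.96 for TLR4 and adaptors, 2.32 and 2.22 for NF-kB, 2.13 and 2.15 for feedback inhibitors, 1.33 and 1.31 for cell death and -0.71 and -0.63 for the cell cycle. They were 2.07 and 1.502 for cytokines, 1.505 and 0.91 for itaconate, nitric oxide and redox enzymes and 3.31 and 2.46 for interferon-stimulated genes.

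**Figure D4:**
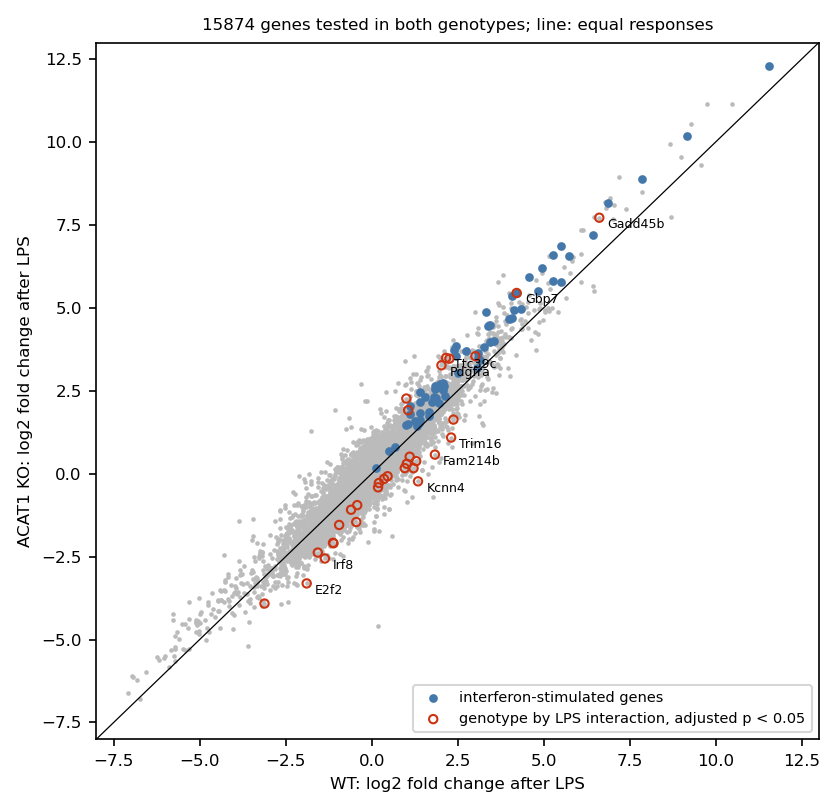
Log2 fold change after LPS in WT cells (horizontal axis) against ACAT1 KO cells (vertical axis) for 15874 genes, with the line of equal responses, the interferon-stimulated genes in blue and the genes whose responses differed by the interaction test ringed in red. All blue points lie above the line.

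All 64 interferon-stimulated genes had a larger log2 fold change in KO than in WT cells, with a median difference of 0.61 (KO minus WT), where 6590 of all 16146 genes had a larger value in KO cells. These differences come from the fit of all 12 libraries, for a list chosen with earlier results of these data known. edgeR's interaction test called 1 of them, Gbp7, different, while 42 had an unadjusted p under 0.05 and DESeq2 called 29. With the replicate number as a block, a pairing that the labels do not state, edgeR called 39. The single call therefore does not show that the other responses were equal. When each of the 12 libraries was left out in turn, 61 to 64 had the larger value in KO cells and 0 to 3 were called. On the scale of all 12 libraries Isg15 stood at 8.93, 11.6 and 10.8 CPM in WT and 6.63, 5.82 and 3.82 CPM in KO cells without LPS, and at 251, 367 and 376 CPM and 446, 422 and 335 CPM after it. For Irf7 the unstimulated values were 38.7, 64.2 and 56.9 CPM in WT and 24.97, 25.8 and 13.3 CPM in KO cells, and those after LPS 235, 317 and 341 CPM and 320.2, 349 and 253 CPM. For Stat2 they were 35.6, 55.9 and 45.7 CPM and 20.4, 21.4 and 19.6 CPM, and then 258, 348 and 337 CPM and 257, 294 and 253 CPM. Without LPS every KO library lay below every WT library for these 3 genes, and after LPS the ranges of the genotypes overlapped. How many of the 64 or of all genes lay apart in this way was not counted. The part of the unstimulated levels in the larger fold changes was not tested. For Tnf, the log2 fold changes were 4.94 in KO and 5.05 in WT cells, a difference of -0.13 in the fit of all libraries (adjusted p = 0.978).

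Of the 16535 genes tested for a difference of the responses, 8 responded more positively in KO cells, 0.0484%, and 23 more negatively, 0.139%. At an unadjusted p under 0.05 there were 1475. The count rests on single libraries, going from 0 to 12 more positive and from 2 to 29 more negative genes when each of the 12 was left out in turn, with 0 and 2 without ACAT1 KO LPS replicate 2 and 12 and 29 without WT LPS replicate 3. DESeq2 called 141 and 192. With the replicate number as a block, a pairing that the labels do not state, edgeR called 138 and 150. Only Fam214b and E2f2 were called in all 12 fits that left out 1 library. Fam214b, of unknown function, stood at 11.1, 9.94 and 10.2 CPM in WT and 12.5, 11.1 and 11.3 CPM in ACAT1 KO cells without LPS, and 41.2, 36.8 and 36.1 CPM and 16.2, 19.7 and 16.4 CPM after it. The difference of the log2 responses, KO minus WT, was -1.29 (SE 0.129, adjusted p = 0.00441). E2f2 stood at 56.5, 58.8 and 56.9 CPM in WT and 51.5, 59.7 and 57.9 CPM in ACAT1 KO cells without LPS, and 16.5, 17.9 and 13.1 CPM and 5.37, 5.92 and 5.85 CPM after it, a difference of -1.44 (SE 0.145, adjusted p = 0.00441). Irf8, called in 8 of the 12 fits, stood at 164, 154 and 160.4 CPM in WT and 227, 232 and 239 CPM in ACAT1 KO cells without LPS, and 55.4, 67.1 and 67.6 CPM and 46.1, 39.5 and 33.6 CPM after it, a difference of -1.22 (SE 0.148, adjusted p = 0.0195). KO cells began higher for Irf8 and ended lower, whereas for E2f2 the genotypes overlapped without LPS and parted after it.

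The next genes by p were called in at most 4 of the 12 fits. The tyrosine kinase gene Tec stood at 41.7, 39.2 and 46.98 CPM in WT and 45.96, 44.2 and 44.3 CPM in ACAT1 KO cells without LPS, and 88.4, 77.9 and 87.8 CPM and 51.3, 53.6 and 46.7 CPM after it (difference -0.82, SE 0.112, adjusted p = 0.0323). The transporter gene Slc49a4 stood at 7.54, 8.24 and 8.47 CPM in WT and 13.1, 11.5 and 11.2 CPM in ACAT1 KO cells without LPS, and 45.2, 41.1 and 42.3 CPM and 36.7, 38.6 and 36.03 CPM after it (difference -0.77, SE 0.105, adjusted p = 0.0323). Of the genes with a more positive response in KO cells, Ttc39c stood at 4.301, 4.01 and 4.34 CPM in WT and 4.07, 3.93 and 4.24 CPM in ACAT1 KO cells without LPS, and 18.7, 15.5 and 23.5 CPM and 51.01, 44.3 and 42.9 CPM after it (difference 1.31, SE 0.181, adjusted p = 0.0323). The genotypes overlapped for Ttc39c without LPS, and after it every KO library lay above every WT library. Mylip, an LXR target that degrades the LDL receptor, stood at 16.7, 24.3 and 25.2 CPM in WT and 14.9, 14.6 and 14.4 CPM in ACAT1 KO cells without LPS, and 45.7, 43.3 and 47.3 CPM and 77.3, 69.2 and 65.7 CPM after it (difference 1.23, SE 0.178, adjusted p = 0.0333). Gbp7 stood at 10.2, 13.4 and 12.2 CPM in WT and 5.22, 4.89 and 4.16 CPM in ACAT1 KO cells without LPS, and 186, 241 and 249 CPM and 229, 210.5 and 186 CPM after it (difference 1.21, SE 0.193, adjusted p = 0.0383). Pdgfra (difference 1.22), Gadd45b (difference 1.08) and Adgre1 (difference 0.83) also responded more positively in KO cells. Among the members of the lists, the more negative genes included E2f8 (difference -1.01) and Myc, with 22.3, 22.5 and 21.3 CPM in WT and 24.1, 20.5 and 21.4 CPM in ACAT1 KO cells without LPS, and 28.7, 29.1 and 28.7 CPM and 19.6, 20.4 and 19.4 CPM after it (difference -0.54, SE 0.0914, adjusted p = 0.0463). Of the genes of fatty acid oxidation, acetyl-CoA supply and lysine acetylation, edgeR's interaction test called 0. At an unadjusted p under 0.05 it gave 1 in each list, and DESeq2 called 1, 0 and 1.

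**Figure D5:**
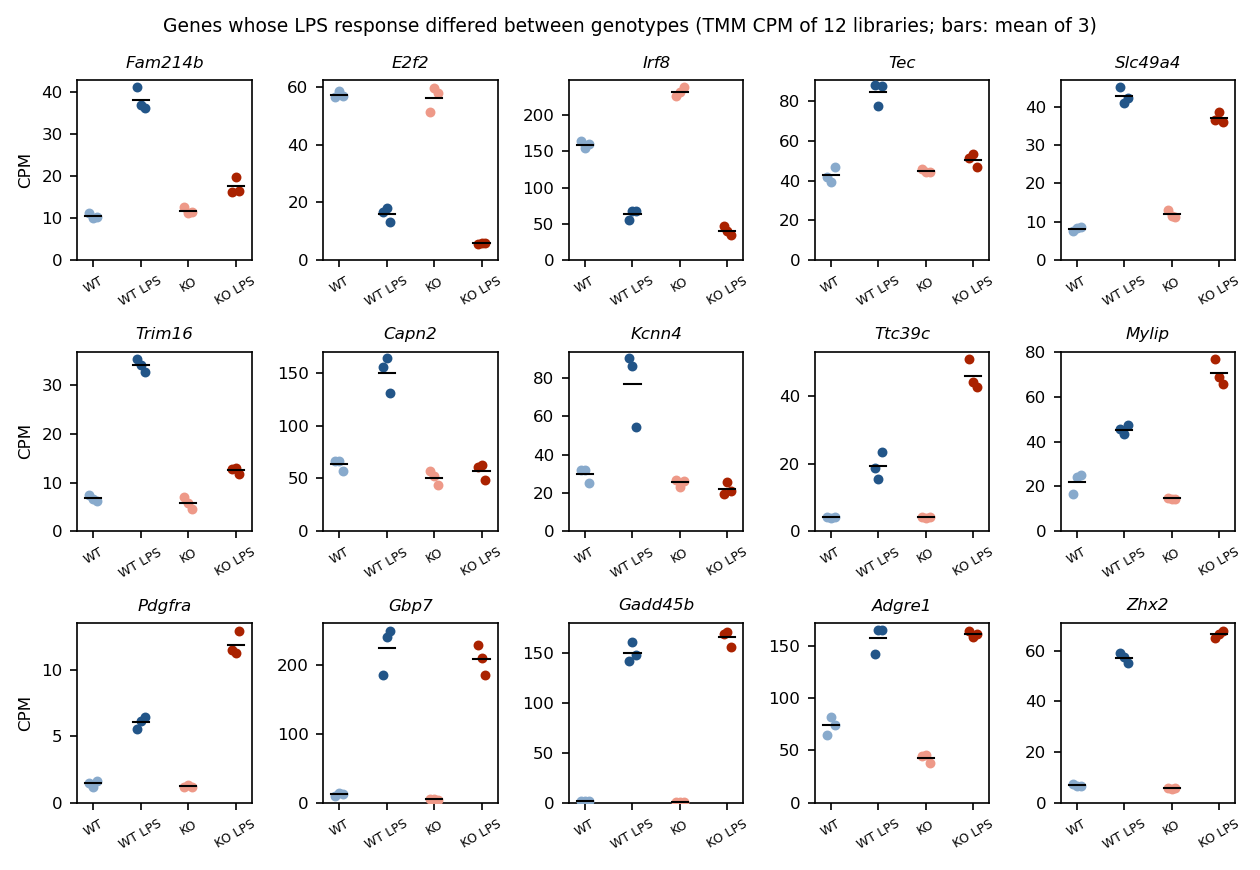
CPM on linear axes of 15 of the 31 genes whose LPS responses differed between genotypes, in the 3 libraries of each of WT, WT with LPS, ACAT1 KO and ACAT1 KO with LPS, with bars at the mean of 3. E2f2 and Irf8 end lower after LPS in ACAT1 KO than in WT cells, and Ttc39c ends higher.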

How the data were processed

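RNA-seq of total RNA was analysed from 12 libraries, 3 in each of 4 groups by genotype and LPS as the labels give them, with the 6 of ACAT1 KO cells as the comparison described. The authors trimmed the paired-end reads (Trimmomatic 0.33) and mapped them with HISAT2 to GRCm38 and quantified genes with StringTie, from libraries of a directional kit. How whole counts were drawn from this, and whether strand was used, are not given in the sources used here, so genes that overlap on opposite strands are uncertain. The deposited values used here are raw whole-number counts of genes, in separate tables for unstimulated and LPS cells, which the authors had not normalized. Their 12 per-library log2 columns and their own comparison (log2 fold change, moderated statistic and p-values) were not used.

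The tables were joined on the gene identifier after removal of 116 repeated rows. Counts were filtered with filterByExpr, scaled by TMM and tested with edgeR 4.0.16 in R 4.3.3 (glmQLFit and glmQLFTest, two-sided). The difference between genotypes was tested as the interaction in a fit of all 12 libraries. CPM in the KO comparison are scaled within its 6 libraries and CPM of 12 libraries over all. Genes of a single table have CPM without TMM scaling. TPM use exonic lengths of GENCODE M21, and principal components were taken of log2 CPM (prior count 2). Pairs of libraries of a group differed by more than sampling noise, so none is a copy. Totals of this size leave the spread between libraries as the limit on precision. The p-values of the main fits measure that spread without a block, so any lasting difference between lines enters it. In the KO comparison the common biological coefficient of variation was 0.181, and 0.0825 with the replicate number as a block. On simulated counts for the KO comparison, with 200 of 16146 genes changed, 83 of 100 genes changed 2-fold and 98 of 100 changed 4-fold were recovered, with 14 unchanged genes called. The simulated counts were drawn independently, with far fewer changed genes than were called here and no library set apart. These figures therefore need not hold for the data themselves.

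The members and gene lists were chosen with earlier results of these data known. The lists held 802 entries for 790 genes, of which 715 were tested, 27 entries were listed only after LPS, 2 only unstimulated, 45 in neither table and 1 was under the filter. Named genes are the 12 largest changes among called genes of at least 5 CPM and the 6 smallest p-values in each direction without Gm and Rik symbols, up to 8 members of each list by p with those called against its majority, 5 interaction genes in each direction, the 12 highest genes of a single table, Acat1 and genes the study measures. Other list members named, among them Tnfaip3, Fos, Il1b, Mx1, Kdm6b, Ptgs2 and Irf9, were chosen after their values were seen. Some genes the rule names are not reported here. Promoters are the first RefSeq window of a symbol. The alternatives were DESeq2 1.42.0, limma-voom from limma 3.58.1, other scalings, filters and dispersions, thinning, a block for the replicate number, all libraries in 1 fit, and libraries left out.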

Additional observations from a re-analysis of the deposited data

Results flagged for a closer look

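For 13 of the genes named, the response to LPS differed between ACAT1 KO and WT cells by edgeR's interaction test over 16535 genes at an adjusted p under 0.05, which is what singled them out. Each value is the log2 response in KO minus that in WT cells, 3 libraries in each of the 4 groups. More negative responses in KO cells were found for Fam214b, with a difference of -1.29, for the cell cycle factors E2f2 at -1.44 and E2f8 at -1.01, for the macrophage and blood cell factors Irf8 at -1.22 and Hhex at -0.82, for the kinase Tec at -0.82 and for the transporter Slc49a4 at -0.77. More positive responses were found for Ttc39c at 1.31, for the LXR target Mylip at 1.23, for the receptor Pdgfra at 1.22, for the interferon-induced GTPase Gbp7 at 1.21, for the stress gene Gadd45b at 1.08 and for the F4/80 gene Adgre1 at 0.83.

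For Irf8, Hhex, E2f2 and E2f8 the level fell after LPS in both genotypes, and for Mylip, Pdgfra, Gbp7, Gadd45b and Adgre1 it rose in both, so the size of the response differed and not its direction. Without LPS the KO libraries lay below all WT libraries for Mylip, Gbp7, Gadd45b and Adgre1 and above them for Fam214b, Irf8, Hhex and Slc49a4. For Fam214b the gap was narrow, the lowest KO library standing at 11.13 and the highest WT library at 11.11 CPM. The genotypes overlapped for E2f2, E2f8, Tec, Ttc39c and Pdgfra. How often genotypes lay apart without LPS over all genes was not counted. The part of these unstimulated levels in the differences was not tested. Fam214b and E2f2 kept their calls when each of the 12 libraries was left out in turn, Irf8 in 8 of these fits and the others of the 31 called genes in 0 to 4 of them.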

How the results depend on the processing

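Counts of genes called in the KO comparison stayed within 1.5 times of the main counts under all 20 alternatives, from 3990 to 5289 higher and from 4033 to 6579 lower. Leaving out 1 library gave 4386 to 5070 higher and 4552 to 5403 lower, and leaving out a replicate number of both states gave 4009 to 4659 and 4033 to 4829. Upper-quartile scaling moved the median of all genes from -0.03 to -0.17 (WT cells, from -0.04 to -0.23). Of 594 named genes and list members called, 506 were called under every alternative that held them, and 24 lost the call without unstimulated replicate 2. The direction turned for Wdr38, whose log2 fold change went from -6.55 to 0.31 as single libraries were left out, the latter without ACAT1 KO unstimulated replicate 2, and was 0.20 without replicate 2 of both states. It also turned for Tlcd3b, at 0.025 without replicate 2 of both states. The medians of 5 of 29 lists changed sign under some alternative, those of the phosphatases, of the receptors, of acetyl-CoA supply, of the lysosome and of the macrophage markers, so no direction is given for them.

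The interaction moved most. It gave 141 higher and 192 lower by DESeq2, 13 higher with at least 10 counts in every library, 5 higher after thinning and 13 lower with upper-quartile scaling. Leaving out 1 library gave 0 to 12 higher and 2 to 29 lower. These were 12 and 29 without WT LPS replicate 3, 12 and 15 without WT unstimulated replicate 1, 9 and 16 without WT unstimulated replicate 3, and 0 to 3 and 2 to 6 without any of the other 9. The fit with the replicate number as a block rests on a pairing that the labels do not state. Deviations of same-numbered KO libraries from their group means correlated by 0.272, 0.091 and 0.126 across 16535 genes, and of different numbers by -0.185 to 0.037. The WT values were 0.307, 0.211 and 0.217 for the same number, and every library correlated best with its own number, a hint from the data and not from the design. With the replicate block the KO comparison gave 5289 higher and 5777 lower, and the interaction 138 higher and 150 lower, among them all 31 genes of the fit without it and 39 of the 64 interferon-stimulated genes.

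Each group holds 3 libraries, a single time point and lines of 1 cell line. Replicate 2 stands apart among the unstimulated KO libraries. Of the unstimulated WT libraries, replicate 1 stands apart in its mitochondrial counts. For 213 of the 245 genes high in KO replicate 2, WT replicates 1 and 2 both lie above WT replicate 3. Depth was high, so that low genes near 0.1 CPM still had several counts, but genes absent from either table could not be compared. CPM are shares, and amounts per cell were not measured.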
